A study of Mus musculus with 6 samples.

Results

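The enzymes that burn fuel in the mitochondria of skeletal muscle were examined in mice lacking Rpt3, an ATPase subunit of the 26S proteasome that is encoded by Psmc4. The set holds 43 genes of the TCA cycle, of pyruvate entry into it, of fatty acid oxidation and of ketone body use, chosen by name and matched to array probes by gene symbol. Of these, 41 had a probe above background on at least 3 of 6 arrays, among 14731 genes tested in all. The remaining 2 have no value here: Hadha, the alpha subunit of the mitochondrial trifunctional protein, had no named probe, and the probe listed for Idh2, the NADP-dependent isocitrate dehydrogenase, carried more than 1 gene name. All 41 were above background on all 6 arrays.

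RNA came from the tibialis anterior according to the sample labels, whereas the study's text names the gastrocnemius for its arrays. There were 3 female Rpt3-/- mice and 3 female Rpt3+/+ controls, all 6 weeks old, with 1 CodeLink array per mouse. Both groups carried Mlc1f-Cre, a Cre recombinase driven by the promoter of a fast myosin light chain. The Rpt3-/- mice had floxed Rpt3 alleles, and although the labels give one strain name, mlc1f-Cre/ Rpt3-floxed, to both groups, the study describes its controls as Mlc1f-Cre/Rpt3+/+. Mlc1f-Cre acts in skeletal muscle and not in the heart, and it removes the floxed gene from a part of the myonuclei, so that, as the study describes it, Rpt3-/- muscle can keep nuclei that still hold Rpt3. Labels do not say whether littermates were compared, and p-values measure the spread between these 6 samples.

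Acetyl-CoA is the meeting point of these pathways. The pyruvate dehydrogenase complex makes it from the end product of glycolysis, beta-oxidation cuts it from fatty acyl-CoA after the carnitine shuttle has carried the acyl group into the matrix, and ketone bodies are split into it by SCOT and a thiolase. The TCA cycle then oxidizes it and hands electrons to the respiratory chain, and the electron transfer flavoprotein passes on those from acyl-CoA dehydrogenases. Oxidative slow fibers rely on this machinery more than glycolytic fast fibers do.

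As a check of the labels, the log2 intensity of Psmc4 was 10.01, 9.78 and 9.85 in Rpt3-/- mice and 11.16, 10.91 and 11.06 in Rpt3+/+ mice. The groups did not overlap, and the log2 fold change (Rpt3-/- minus Rpt3+/+) was -1.17 (SE 0.13, adjusted p = 0.00031). Psmc4 had 2 tested probes, of which the brighter is given. The sources used here do not place that probe relative to the deleted exons. Between 57.0% and 74.5% of the probes on an array were above background, the fewest on that of Rpt3+/+ mouse 2. Of 9 general muscle markers measured, 8 were above background on all 6 arrays, the spot of Acta1 was left out on 1 control array, and none of the marker lists tells the tibialis anterior from the gastrocnemius. With bulk RNA, fewer cells of a type and less RNA per cell cannot be told apart.

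Transcripts of oxidative fuel use were mostly lower in Rpt3-/- muscle. Of the 41 genes measured, 19 fell, 2 rose and 20 did not pass the threshold, an adjusted p under 0.05 in the limma model of all 14731 genes. The genes that fell were 46.3% of those measured, where 6.56% of all tested genes fell, and the genes that rose were 4.88%, where 12.7% of all tested genes rose. The median log2 fold change was -0.42, against -0.01 over all tested genes, and 32 of the 41 lay below that median. In all, 33 of the 41 log2 fold changes were negative. The lowest was -1.50 for Idh3a and the highest 0.84 for Idh3b, which encode subunits of the same enzyme. Without adjustment 25 genes were lower and 3 higher at p under 0.05. On 26 of the 41 probes every Rpt3-/- array lay below every Rpt3+/+ array, and on 4 every Rpt3-/- array lay above, where the shares over all tested genes were 15.6% and 21.2%.

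Most of these probes were bright, and bright probes passed more often in both directions. Of the 41, 36 were in the brightest of 4 equal groups of tested genes, where 14.7% of genes fell and 19.7% rose. Within it, 18 of the 36 fell and 1 rose, with a median log2 fold change of -0.45. Rpt3-/- mouse 1 gave the lowest of the 6 values for 31 of the 41 genes, including 18 of the 19 that fell. Without that array 8 genes fell and the median was -0.36, where 475 of all 14731 tested genes fell, against 967 as reported. Without the array of Rpt3+/+ mouse 3, 8 fell and 1 rose, where 387 of all 14730 tested genes fell and 1081 rose. Those 8 were the same genes in both cases, namely Pdk2, Cs, Idh3a, Dld, Sucla2, Cpt1b, Acaa2 and Oxct1. Without the array of Rpt3-/- mouse 3, 13 fell and 1, Idh3b, rose, where 543 of all 14730 tested genes fell and 1155 rose.

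**Figure D1:**
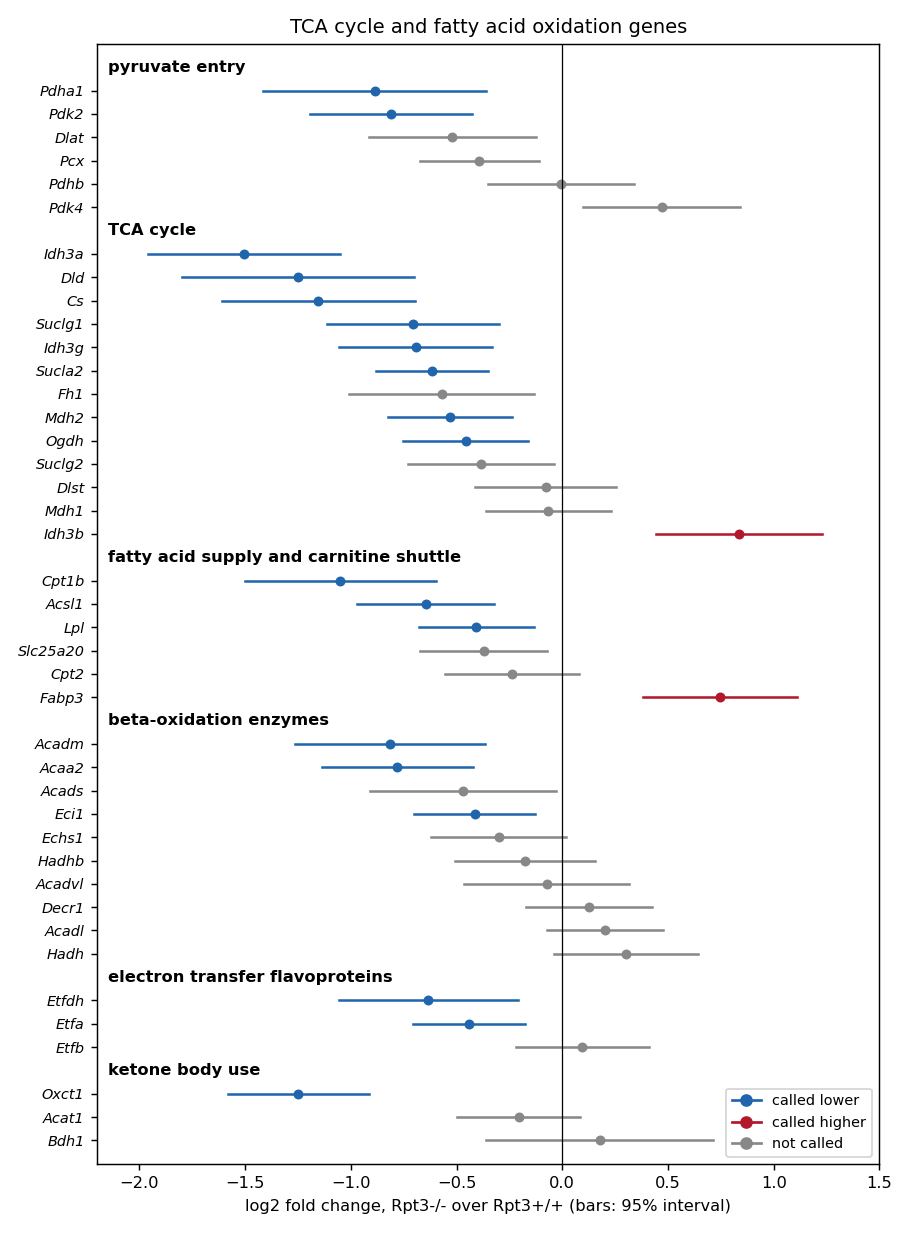
Log2 fold change of each of the 41 measured genes between Rpt3-/- and Rpt3+/+ muscle, grouped by role, with points at the estimate and bars for the 95% interval from limma (3 arrays a group). Blue points mark the 19 genes called lower, red points the 2 called higher, Idh3b and Fabp3, and grey points the 20 that did not pass.

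**Figure D2:**
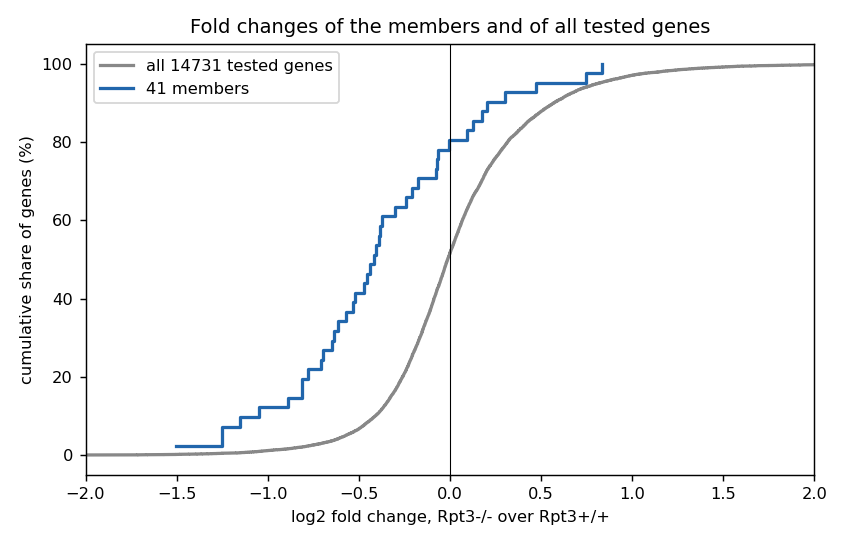
Cumulative share of genes in percent against log2 fold change, for the 41 genes (blue) and all 14731 tested genes (grey). The blue line lies to the left of the grey line, with a median of -0.42 against -0.01, and comes close to it at the right, where Fabp3 and Idh3b stand.

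Scaling set how many genes passed, and how far the median of the 41 genes lay below that of all genes. When arrays were centred on their medians instead of quantile normalized, 8 of the 41 fell and 5 rose, with a median of -0.16, against 0.05 over all genes. Over the whole table that scaling turned 1870 higher and 967 lower genes into 2555 and 602. When arrays, once median centred, were further centred on Actb, which encodes beta-actin and itself rose in Rpt3-/- muscle (log2 fold change 0.45, adjusted p = 0.0294), the median of all genes moved to -0.72, 329 genes were higher and 10328 lower, and 31 of the 41 fell while none rose. Relative to the median of all genes, the median of the 41 was -0.40 as reported, -0.38 with cyclic loess and -0.22 with median centring. Actb centring shifts all genes of an array alike and leaves the last value as it is. By role, median centring left 3 of the TCA cycle genes lower and 1 higher, with a median of -0.28, and brought the medians of the beta-oxidation enzymes and the ketone body genes to 0.06 and 0.04, close to that of all genes. The 3 genes that rose with median centring and not as reported were Pdk4, Acadl and Hadh.

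Markers of fiber type and of other cells moved between the same arrays. Of 9 slow fiber markers measured, 7 rose and none fell, with Tnni1 at 1.36 and Myh7 at 0.37 (adjusted p = 0.258), and the summed normalised intensity of the list was 26208 to 28191 in Rpt3-/- mice and 17212 to 21051 in controls. The study describes the tibialis anterior as mostly fast fibers, without fiber-type switching in Rpt3-/- mice. In the gastrocnemius it reports a larger proportion of slow fibers. Of 10 fast fiber markers, 2 fell, Myl1 and Actn3, and 1 rose, Myh1, with sums of 183540 to 186010 and 199390 to 211390. With cyclic loess 7 of these fell, with a median of -0.69 in place of -0.21. Atp2a1, Mylpf, Tnni2 and Tnnc2 were saturated on 3 or 4 arrays each and Pvalb on 1, which limits these calls and sums. Of 9 general muscle markers, 4 fell and none rose, among them Mb, the gene of the oxygen carrier myoglobin (-0.86, adjusted p = 0.00108), and the sums of the 8 with a value on every array were 73021 to 82442 and 91370 to 97557, with no overlap. Of these, Ckm was saturated on 4 arrays. Of 11 macrophage markers, 8 rose, with sums of 6531 to 9762 and 2712 to 3177. Of 7 adipocyte markers, 5 rose, with sums of 9404 to 10613 and 6703 to 7761, and of 10 fibroblast markers, 5 rose, with sums of 30389 to 32094 and 20052 to 23824. None of the 9 endothelial markers passed, with 1 lower at an unadjusted p under 0.05, and their sums were 3125 to 3425 and 3191 to 3658. With Actb centring, 9 fast fiber, 8 general muscle and 7 endothelial markers fell and none rose. Of the other lists, 4 slow fiber markers rose and 1 fell, 7 macrophage markers rose and 3 fell, and 3 adipocyte markers rose and 1 fell. The fibroblast median turned from 0.48 to -0.10. That scaling also called 10328 of all 14731 tested genes lower and 329 higher, with a median of -0.72. Some defining markers were too dim to be tested. Adgre1 of macrophages was above background on 1 of the 6 arrays, Itgam of macrophages and Cdh5 of endothelium on 2, and Lep and Lipe of adipocytes on 0. Among those tested, Aif1 of macrophages and Cidea of adipocytes were above background on 1 control array each. The summed normalised intensity of the 41 genes was 78512 to 98542 in Rpt3-/- mice and 105730 to 113160 in controls. The roles differed. TCA cycle sums were 29052 to 36619 and 46450 to 49673, and those of electron transfer flavoproteins and ketone body use were also lower without overlap. Sums of fatty acid supply and the carnitine shuttle were higher, at 12746 to 16102 and 11027 to 12512. Those of pyruvate entry and beta-oxidation overlapped. The part of fiber type, infiltrating cells and fat in the lower values among the 41 genes was not tested.

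The TCA cycle held the largest decrease, that of Idh3a. Of its 13 measured genes, 8 fell, 1 rose and 4 did not pass, with a median log2 fold change of -0.57. Citrate synthase, encoded by Cs, opens the cycle by joining acetyl-CoA to oxaloacetate. The log2 intensity of Cs was 9.11, 9.47 and 9.32 in Rpt3-/- mice and 9.97, 10.74 and 10.65 in Rpt3+/+ mice. Rpt3-/- values were all below the lowest control, and the log2 fold change was -1.15 (SE 0.20, adjusted p = 0.00355). A second Cs probe was not above background on any array and was not tested.

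Isocitrate dehydrogenase 3, the NAD-dependent enzyme that commits isocitrate to oxidation, is built from catalytic alpha subunits and regulatory beta and gamma subunits. Idh3a, the gene of the alpha subunit, had log2 intensities of 10.15, 10.94 and 10.63 in Rpt3-/- mice and 11.85, 12.07 and 12.31 in Rpt3+/+ mice. This was the largest change among the 41 genes, at -1.50 (SE 0.20, adjusted p = 0.000867), with the groups well apart. For Idh3g, the gamma subunit, the values were 10.84, 11.40 and 11.09 in Rpt3-/- mice and 11.84, 11.66 and 11.93 in Rpt3+/+ mice. Its groups were also separate. The log2 fold change was -0.69 (SE 0.16, adjusted p = 0.0142), a call lost under 6 of 21 alternatives. Idh3b, the beta subunit, went the other way. Its log2 intensity was 9.17, 9.32 and 9.40 in Rpt3-/- mice and 8.10, 8.79 and 8.50 in Rpt3+/+ mice. Every Rpt3-/- array was above every control, and the log2 fold change was 0.84 (SE 0.18, adjusted p = 0.00872), a call lost under 2 of 21 alternatives, the unpaired parametric test of the study's methods (the methods' test) after Benjamini-Hochberg adjustment and Actb centring. The difference between Idh3a and Idh3b on the same array shifted by -2.34 (SE 0.25) between the groups, that between Idh3b and Idh3g by 1.53 (SE 0.29) and that between Idh3a and Idh3g by -0.81 (SE 0.15). Each of these had an exact two-sided permutation p of 0.1, the smallest that 3 arrays against 3 can give. Over the 20 pairs of genes compared within 7 enzymes or steps it was 0.154 after Benjamini-Hochberg adjustment. The groups did not overlap in 13 of the 20 pairs. Many of these pairs share a gene, and the share over other pairs of genes was not computed.

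2-oxoglutarate dehydrogenase, the next complex of the cycle, has E1, E2 and E3 components. Dld encodes E3, dihydrolipoamide dehydrogenase, which this complex shares with the pyruvate dehydrogenase complex. Its log2 intensity was 9.23, 10.05 and 9.85 in Rpt3-/- mice and 10.49, 11.26 and 11.14 in Rpt3+/+ mice. Rpt3-/- values were all below the control values, by -1.25 (SE 0.25, adjusted p = 0.00605) on the log2 scale. Ogdh, the E1 component, measured 10.93, 11.16 and 11.29 in Rpt3-/- mice and 11.56, 11.61 and 11.59 in Rpt3+/+ mice. Here the groups were closer but separate, with a log2 fold change of -0.46 (SE 0.13, adjusted p = 0.0373), a call that was lost under 10 of 21 alternatives. The brightest probe of Dlst, the E2 component, stood at -0.08 on the log2 scale (adjusted p = 0.77) and its other probe at -0.73 (adjusted p = 0.00637 over probes), so they disagreed.

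Succinyl-CoA ligase yields a nucleoside triphosphate directly, and its alpha subunit, Suclg1, pairs with an ADP-specific beta subunit, Sucla2, or a GDP-specific one, Suclg2. Suclg1 had log2 intensities of 10.91, 11.64 and 11.44 in Rpt3-/- mice and 12.12, 11.97 and 12.02 in Rpt3+/+ mice. The groups did not overlap. The log2 fold change of Suclg1 was -0.71 (SE 0.18, adjusted p = 0.0219), a call lost under 7 of 21 alternatives. For Sucla2 the arrays read 12.23, 12.34 and 12.34 in Rpt3-/- mice and 12.91, 12.87 and 12.98 in Rpt3+/+ mice. They were tight within each group and apart between groups, with a log2 fold change of -0.62 (SE 0.12, adjusted p = 0.00561). A dimmer Sucla2 probe gave 0.31 and did not pass (adjusted p = 0.162 over probes). The Sucla2 call was lost under 3 of 21 alternatives, among them the mean of its probes, at -0.15. Suclg2 stood at a log2 fold change of -0.39 (adjusted p = 0.116) and did not pass.

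Malate dehydrogenase closes the cycle. Mdh2, the mitochondrial form, had log2 intensities of 12.10, 12.33 and 12.23 in Rpt3-/- mice and 12.88, 12.63 and 12.75 in Rpt3+/+ mice. The groups were separate and the log2 fold change was -0.53 (SE 0.13, adjusted p = 0.0183). The call of Mdh2 was lost under 6 of 21 alternatives, with -0.21 under median centring and -0.23 with the deposited value table. Mdh1, the cytosolic form that serves the malate-aspartate shuttle, had a log2 fold change of -0.07 (95% interval -0.36 to 0.23) and did not pass. Among the 4 TCA cycle genes that did not pass, log2 fold changes ran from -0.57 to -0.07, the largest being that of Fh1, the gene of fumarase (adjusted p = 0.0711).

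**Figure D3:**
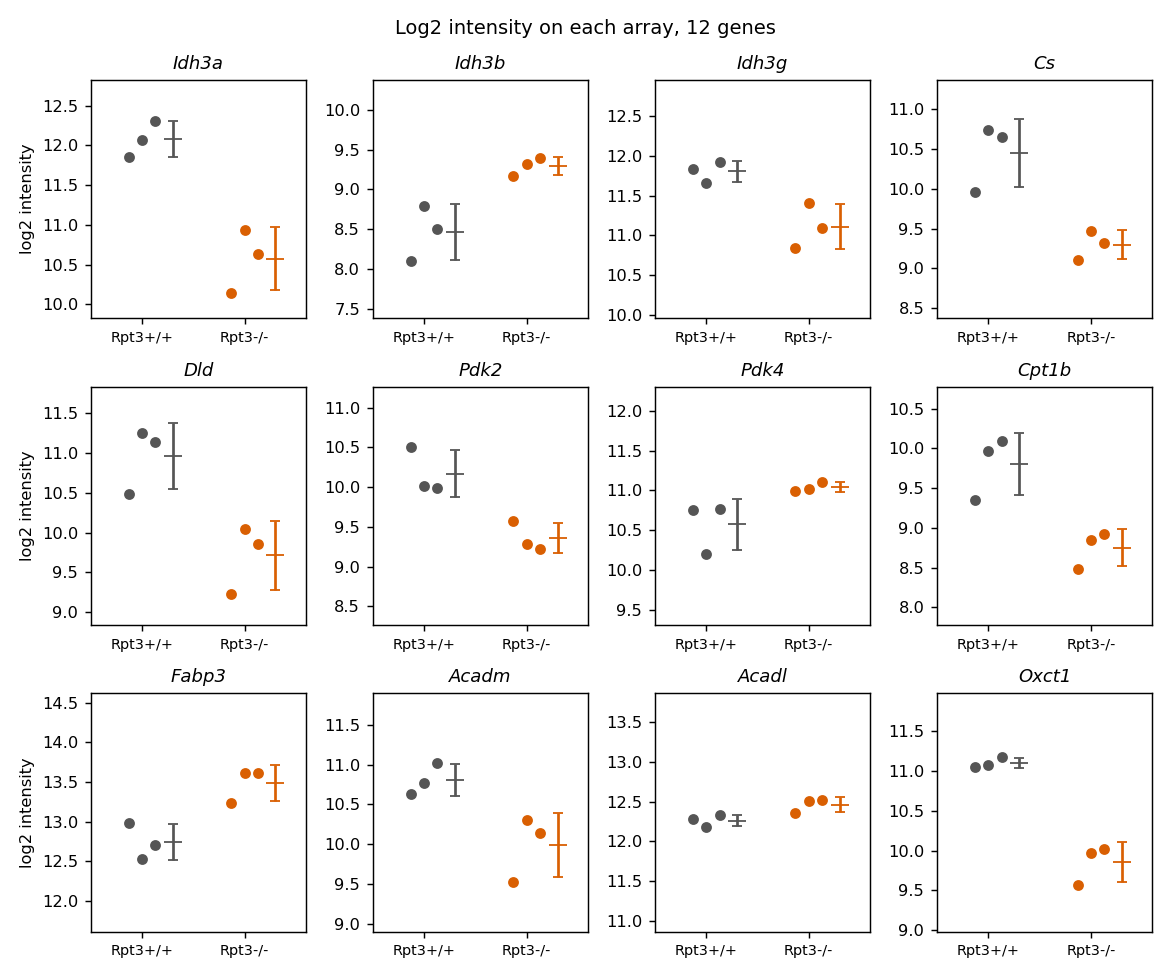
Log2 intensity of 12 genes on each array, with Rpt3+/+ mice in grey and Rpt3-/- mice in orange. Points are single arrays, bars beside them are the mean ± SD (n = 3), and every panel spans the same range on the log2 scale. Idh3a, Idh3g, Cs, Dld, Pdk2, Cpt1b, Acadm and Oxct1 are lower in Rpt3-/- mice, Idh3b and Fabp3 are higher, and Pdk4 and Acadl, which did not pass, have separate groups with small differences.

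At the entry of pyruvate, 2 of 6 genes fell and 4 did not pass, with a median log2 fold change of -0.46. Pdha1 encodes the E1 alpha subunit of the pyruvate dehydrogenase complex, the subunit that is switched off by phosphorylation. Its log2 intensity was 6.67, 6.91 and 7.28 in Rpt3-/- mice and 7.30, 8.20 and 8.01 in Rpt3+/+ mice. The highest Rpt3-/- array and the lowest control array nearly touched. Pdha1 had a log2 fold change of -0.89 (SE 0.24, adjusted p = 0.0253), a call lost under 7 of 21 alternatives. Its partner in E1, Pdhb, had a log2 fold change of -0.004 (95% interval -0.35 to 0.34), and the shift between Pdha1 and Pdhb was -0.88 (SE 0.33, exact permutation p = 0.1). Dlat, the E2 component, had the largest change among the genes that did not pass in this group (-0.52, adjusted p = 0.0682). Pcx, pyruvate carboxylase, which refills oxaloacetate, stood at a log2 fold change of -0.39 (adjusted p = 0.0543).

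The pyruvate dehydrogenase complex is phosphorylated and shut by a family of kinases. Pdk2, of this family, had log2 intensities of 9.58, 9.28 and 9.22 in Rpt3-/- mice and 10.51, 10.01 and 9.99 in Rpt3+/+ mice. All Rpt3-/- arrays were below the controls and the log2 fold change was -0.81 (SE 0.17, adjusted p = 0.00876). Pdk4, the kinase raised by fasting and by PPAR activity, had log2 intensities of 10.99, 11.02 and 11.11 in Rpt3-/- mice and 10.75, 10.20 and 10.77 in Rpt3+/+ mice. Every Rpt3-/- array was above every control, but the log2 fold change of 0.47 (95% interval 0.10 to 0.84) did not pass (adjusted p = 0.0781). It passed with median centring and without Rpt3+/+ mouse 1, and stood at -0.02 with Actb centring. The difference between Pdk2 and Pdk4 on the same array shifted by -1.28 (SE 0.23), with an exact permutation p of 0.1 and 0.154 after adjustment over the 20 pairs.

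In the supply of fatty acids and the carnitine shuttle, 3 of 6 genes fell, 1 rose and 2 did not pass, with a median of -0.39. Fabp3, the fatty acid binding protein of heart and slow muscle, was the gene that rose. Its log2 intensity was 13.23, 13.62 and 13.62 in Rpt3-/- mice and 12.99, 12.54 and 12.70 in Rpt3+/+ mice. The groups were separate, with a log2 fold change of 0.74 (SE 0.16, adjusted p = 0.0104). The call was lost under 4 of 21 alternatives, without Rpt3-/- mouse 3, without Rpt3+/+ mouse 3, with the methods' test after Benjamini-Hochberg adjustment and with Actb centring, where the value was 0.18 (adjusted p = 0.474). Lpl, lipoprotein lipase, which frees fatty acids from circulating triglyceride, went down instead. It measured 10.60, 10.71 and 10.69 in Rpt3-/- mice and 11.02, 11.03 and 11.17 in Rpt3+/+ mice. The groups were narrowly apart, at -0.41 (SE 0.12, adjusted p = 0.0422), and the call was lost under 10 of 21 alternatives.

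Acsl1, an acyl-CoA synthetase that activates fatty acids on entry, also fell. The arrays gave 9.33, 9.42 and 9.51 in Rpt3-/- mice and 9.81, 10.20 and 10.19 in Rpt3+/+ mice. There was no overlap. The log2 fold change was -0.65 (SE 0.15, adjusted p = 0.0118), a call lost under 4 of 21 alternatives. Acsl1 was matched to its probe through a RefSeq accession and not through the platform annotation, and leaving it out gave 18 genes lower and a median of -0.41. Cpt1b is the muscle form of carnitine palmitoyltransferase 1, the step at which malonyl-CoA controls oxidation. Its log2 intensity was 8.49, 8.85 and 8.92 in Rpt3-/- mice and 9.35, 9.97 and 10.09 in Rpt3+/+ mice. The groups did not overlap and the log2 fold change was -1.05 (SE 0.20, adjusted p = 0.0056). The next steps of the shuttle did not pass. The log2 fold change was -0.37 (adjusted p = 0.0837) for Slc25a20, the carnitine-acylcarnitine carrier, and -0.24 (adjusted p = 0.287) for Cpt2.

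Within the matrix, fewer of the beta-oxidation enzymes passed. Of 10 measured, 3 fell and 7 did not pass, with a median of -0.24 that turned to 0.06 with median centring, where 1, Acaa2, fell and 2, Acadl and Hadh, rose. Acadm, the medium-chain acyl-CoA dehydrogenase, had log2 intensities of 9.53, 10.30 and 10.14 in Rpt3-/- mice and 10.63, 10.77 and 11.02 in Rpt3+/+ mice. The groups were separate although Rpt3-/- mouse 1 was far below the other arrays. The log2 fold change was -0.81 (SE 0.20, adjusted p = 0.0183), a call lost under 5 of 21 alternatives. Acadl, the long-chain acyl-CoA dehydrogenase, had log2 intensities of 12.36, 12.51 and 12.53 in Rpt3-/- mice and 12.28, 12.18 and 12.33 in Rpt3+/+ mice. The Rpt3-/- arrays were narrowly above the controls, by 0.20 (95% interval -0.07 to 0.48), and did not pass (adjusted p = 0.303). Acadvl, the very-long-chain enzyme, stood at a log2 fold change of -0.07 (adjusted p = 0.822), and Acads, the short-chain enzyme, -0.47 (adjusted p = 0.131), the largest change among the 7.

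Thiolysis and isomerisation were represented by the other 2 that fell. Acaa2, a mitochondrial 3-ketoacyl-CoA thiolase, had log2 intensities of 10.03, 10.60 and 10.45 in Rpt3-/- mice and 11.16, 11.08 and 11.18 in Rpt3+/+ mice. The controls lay close together and above every Rpt3-/- array, and the log2 fold change was -0.78 (SE 0.16, adjusted p = 0.00743). Eci1, an enoyl-CoA isomerase needed for unsaturated fatty acids, measured 10.61, 10.71 and 10.77 in Rpt3-/- mice and 11.19, 11.18 and 10.96 in Rpt3+/+ mice. Its groups were separate by a small margin, with a log2 fold change of -0.42 (SE 0.13, adjusted p = 0.0474), and this call was the least stable, lost under 14 of 21 alternatives. Log2 fold changes of the 7 that did not pass ran from -0.47 to 0.30, the highest being that of Hadh, the short-chain hydroxyacyl-CoA dehydrogenase. Hadhb, the beta subunit of the trifunctional protein, stood at a log2 fold change of -0.18 (adjusted p = 0.46), and Echs1, the short-chain enoyl-CoA hydratase, -0.30 (adjusted p = 0.183). Decr1, a dienoyl-CoA reductase, stood at a log2 fold change of 0.13 (adjusted p = 0.568). No test was made of whether the beta-oxidation enzymes differed from the TCA cycle genes.

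Electrons from acyl-CoA dehydrogenases pass through the flavoprotein dimer ETF and its ubiquinone oxidoreductase, and 2 of these 3 genes fell. Etfa, the alpha subunit of ETF, had log2 intensities of 12.26, 12.39 and 12.29 in Rpt3-/- mice and 12.73, 12.80 and 12.74 in Rpt3+/+ mice. The groups did not overlap, and the log2 fold change was -0.44 (SE 0.12, adjusted p = 0.0271). Etfdh, the oxidoreductase, measured 9.31, 9.92 and 9.84 in Rpt3-/- mice and 10.04, 10.47 and 10.46 in Rpt3+/+ mice. Here too the groups were separate, with a log2 fold change of -0.63 (SE 0.19, adjusted p = 0.0422). Each of these calls was lost under 10 of 21 alternatives. Etfb, the beta subunit, had 0.09 (95% interval -0.22 to 0.41) and did not pass, and the difference between Etfa and Etfb shifted by -0.53 (SE 0.11, exact permutation p = 0.1).

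For ketone bodies, 1 of 3 genes fell, with a median of -0.21, or 0.04 with median centring. Oxct1 encodes SCOT, the CoA transferase that lets muscle use acetoacetate. Its log2 intensity was 9.57, 9.97 and 10.02 in Rpt3-/- mice and 11.05, 11.08 and 11.18 in Rpt3+/+ mice. The groups were more than 1 unit apart, with a log2 fold change of -1.25 (SE 0.15, adjusted p = 0.000433), a 2.38-fold lower level. It was the 1 gene of the 21 that kept its call under all 21 alternatives. Bdh1, 3-hydroxybutyrate dehydrogenase, had log2 intensities of 7.47, 8.35 and 8.41 in Rpt3-/- mice and 7.61, 8.09 and 7.998 in Rpt3+/+ mice. The groups overlapped, and the log2 fold change was 0.18 (95% interval -0.36 to 0.72, adjusted p = 0.668). Acat1, the mitochondrial acetoacetyl-CoA thiolase, stood at a log2 fold change of -0.21 (adjusted p = 0.32). The difference between Oxct1 and Acat1 shifted by -1.04 (SE 0.21) and that between Bdh1 and Oxct1 by 1.42 (SE 0.20), each with an exact permutation p of 0.1.

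**Figure D4:**
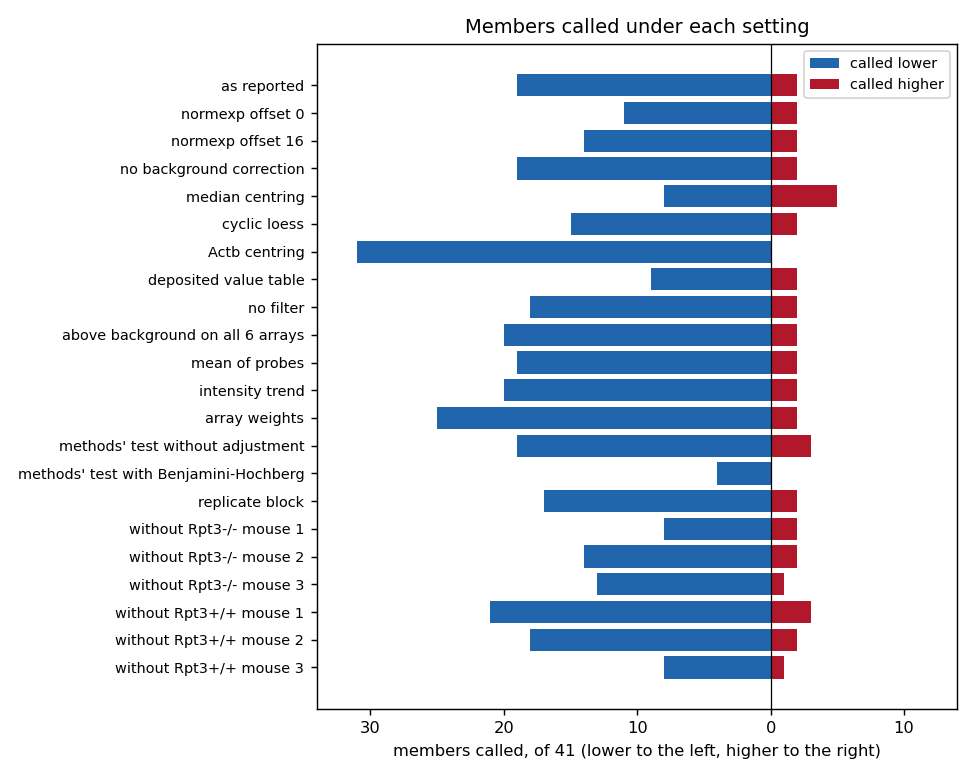
Number of the 41 genes called lower (blue, to the left) and higher (red, to the right) in Rpt3-/- muscle under each processing setting. Counts of genes called lower run from 4 with the methods' test after Benjamini-Hochberg adjustment to 31 with Actb centring, and stand at 19 as reported. In the same order, 427, 10328 and 967 of all tested genes were called lower.

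A wider list of 51 genes in the same pathways was described for comparison. Of 42 measured, 9 fell, 4 rose and 29 did not pass, with a median log2 fold change of -0.13. Over all tested genes, 6.56% fell and 12.7% rose. The largest decreases were those of Cd36, a fatty acid transporter (-1.09, adjusted p = 0.0152), Pdpr, the regulatory subunit of pyruvate dehydrogenase phosphatase (-1.04, adjusted p = 0.00556), and Slc25a11, the mitochondrial oxoglutarate carrier (-0.96, adjusted p = 0.00274). The largest increases were those of Pdk3, another pyruvate dehydrogenase kinase (0.78, adjusted p = 0.00898), Eci2, a second enoyl-CoA isomerase (0.57, adjusted p = 0.0197), and Me2, a mitochondrial malic enzyme (0.54, adjusted p = 0.0133). Cd36 was matched to its probe through a RefSeq accession, and its call was lost under 3 of 21 alternatives. The call of Eci2 was lost under 7 of 21, and that of Me2 under 3 besides Actb centring, where Me2 changed sign. Pdk3 was above background on 2 of the 3 control arrays. With Actb centring none of the 4 was called higher, and Pdk3 and Me2 stood at -0.03 and -0.20. Over all 14731 tested genes that scaling left 329 higher. Without Rpt3+/+ mouse 3 this list had 2 genes lower and 1 higher, without Rpt3-/- mouse 1 it had 3 and 2, without Rpt3-/- mouse 2 it had 4 and 2, and without Rpt3-/- mouse 3 it had 5 and 1. In the same order, these fits gave 387, 475, 645 and 543 lower over all tested genes, against 967 with all arrays. The higher calls were 1081, 1258, 1546 and 1155, against 1870.

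Regulators of these genes did not share 1 direction. Of 10 PPAR and ERR regulators, 3 fell, 1 rose and 6 did not pass, where 6.56% of all tested genes fell and 12.7% rose. With Actb centring 6 of the 10 fell and none rose, where 10328 of all 14731 tested genes fell and 329 rose. Ppara, the nuclear receptor that drives fatty acid oxidation genes, had log2 intensities of 8.11, 8.47 and 8.44 in Rpt3-/- mice and 8.96, 9.19 and 8.84 in Rpt3+/+ mice. The groups were separate and the log2 fold change was -0.66 (SE 0.15, adjusted p = 0.0127). Nrip1, a corepressor of nuclear receptors, stood at a log2 fold change of -0.68 (adjusted p = 0.00823), and Lpin1, a phosphatidate phosphatase and coactivator, -0.62 (adjusted p = 0.00502). Esrrg, an estrogen-related receptor, was the gene that rose, with log2 intensities of 7.64, 8.22 and 8.24 in Rpt3-/- mice and 6.77, 7.44 and 7.34 in Rpt3+/+ mice. Its groups did not overlap, at 0.85 (SE 0.22, adjusted p = 0.0197). Ppargc1a, which encodes PGC-1 alpha, had 0.02 (95% interval -0.59 to 0.63) and overlapping groups. Of 6 known PPAR targets measured, which include Cpt1b and Pdk4, 2 fell, Cpt1b and Ucp3, and 1 rose, Angptl4. These 6 were picked for their role and moved both ways, with 1.55 for Angptl4, an inhibitor of lipoprotein lipase (adjusted p = 0.000629), and -1.13 for Ucp3, a mitochondrial uncoupling protein (adjusted p = 0.000922).

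The promoters of the genes with an entry in the RefSeq table (GRCm38.p6) were searched on both strands, from 250 bases before to 50 bases after the start. Of the 41 genes, 35 had an entry. The nuclear receptor half-site AGGTCA, which PPAR and ERR elements contain, was in 8 of the 35 (22.9%), against 18.1% of all 27025 genes with a promoter there. It was in 4 of the 15 genes that fell and had an entry, Acadm, Idh3g, Ogdh and Sucla2, and in 4 of the 20 that did not fall. Over all tested genes with an entry the share was 15.8%. The extended ERR half-site TNAAGGTCA and a direct repeat of the half-site with 1 base between were in none, against 1.43% and 0.0481% of all, and the NRF1 core motif was in 1, Etfdh, against 1.07%. Over tested genes with an entry these shares were, in the same order, 1.12%, 0.0428% and 1.85%. The half-site and the NRF1 core do not overlap, whereas the extended and repeated forms contain the half-site. The 3 windows that follow show the matches that lie before the start in genes that fell, 5′ to 3′ on the strand of the gene, with the match in capitals, Acadm holding the half-site on the opposite strand.
Sucla2, chr14:73552607-73552652, plus strand: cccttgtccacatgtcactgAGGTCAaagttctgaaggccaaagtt
Acadm, chr3:153944867-153944893, minus strand: gTGACCTtcgggctccggtgacactgg
Etfdh, chr3:79628866-79628915, minus strand: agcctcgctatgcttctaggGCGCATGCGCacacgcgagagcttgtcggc
A match describes these letters and is not a bound site, and genes with no match may hold the motif elsewhere.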

How the data were processed

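RNA from tibialis anterior muscle (per the labels) of 3 Rpt3-/- and 3 Rpt3+/+ mice was hybridised to CodeLink bioarrays in 1 colour, 1 array per mouse and slide. The deposited scanner files hold a spot intensity, a local background and a quality flag, written by the authors with CodeLink Expression Analysis 5.0.0.31312 and not normalised between arrays. A deposited table of processed intensities served as an alternative only.

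With limma 3.58.1 in R 4.3.3, intensities were corrected by normexp (offset 50), quantile normalised and log2 transformed. Between 101 and 127 masked or contaminated spots per array and, after correction, 1260 control spots were left out. Of 34967 probes, 21615 had 1 symbol in the platform annotation, 681 had several and 12671 were not listed, of which 535 were named through a RefSeq accession. The brightest probe of a gene above background on at least 3 arrays was fitted with lmFit and eBayes, and p-values were adjusted by Benjamini-Hochberg over all genes. Differences between subunits were tested by exact permutation in Python 3.11.15. The steps were tested on simulated data. Precision is limited by how few arrays there were and by how far signals stood above background.

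Genes and lists were chosen with earlier results of these data known. Every gene that passed is described with its values, as are Cs, Pdk2, Pdk4, Cpt1b, Acadm, Acadl, Lpl, Fabp3, Oxct1 and Bdh1, and of the others in a group the 1 with the largest change, besides genes named for their role after their values were seen. Alternatives were other background corrections, scalings, filters, probe rules and variance models, the deposited table, the unpaired parametric test of the study (the methods' test), a fit blocked on replicate number, and fits with 1 array left out. Promoter sequences are RefSeq's (GRCm38.p6).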

Additional observations from a re-analysis of the deposited data

How the results depend on the processing

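The median of the 41 genes was below that of all genes under the 14 alternatives that estimate fold changes anew, with differences of -0.44 to -0.22 on the log2 scale. Actb centring keeps the difference of median centring. The difference was -0.395 with no filter and -0.390 with only genes above background on all 6 arrays. The other tests and variance models leave it as reported by construction. None of the 21 genes called among them changed sign, nor did the 6 named of the wider list except Pdk3 (-0.0282) and Me2 (-0.20) with Actb centring. Counts of calls depended on the processing, and the cause was not tested. For the 41 genes, 11 were lower with a normexp offset of 0, 9 with the deposited value table, 8 lower and 5 higher with median centring (median -0.16), and 31 lower and 0 higher with Actb centring (median -0.93). In the same order, the lower calls over all 14731 tested genes were 740, 716, 602 and 10328, against 967 as reported. The higher calls were 1598, 1620, 2555 and 329, against 1870. The methods' test gave 19 lower and 3 higher without adjustment, and 4 and 0 after Benjamini-Hochberg adjustment. Over the 14729 genes it tested, it gave 1636 lower and 2502 higher without adjustment, and 427 and 940 after. For the wider list, the counts of lower and higher genes were 5 and 2 with an offset of 0, 4 and 2 with the deposited table, 33 and 0 with Actb centring, and 0 and 1 with the methods' test after adjustment (12 and 4 without). Median centring gave 4 lower and array weights 15 lower in that list. Array weights gave 2361 lower and 3007 higher over all tested genes. Leaving out 1 array in turn gave 8 to 21 lower and 1 to 3 higher among the 41 genes, and 2 to 12 lower and 1 to 5 higher in the wider list. Over all tested genes these fits gave 387 to 1418 lower and 1081 to 2332 higher.

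Deviations from the group mean in samples with the same replicate number had correlations of 0.13, -0.44 and 0.10. Those of samples with different numbers ran from -0.48 to 0.47. With 3 arrays a group these values cannot tell whether the numbers pair the mice, and the labels give no pairing. With a replicate block 17 of the 41 genes were lower and 2 higher, and the wider list had 8 and 4. A block for slide was not run, since each slide held 1 array. Genes with dim probes can change more than the fold given here, since the offset shrinks low values.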
